A study of Arabidopsis thaliana with 12 samples.

Results

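The 18 genes described here had transcript levels that followed the eml1 eml2 mutations and not gte4: both genotypes that carry eml1 eml2 differed from wild type in the same direction, and gte4 stood near wild type. They were chosen from genotype means of the deposited values, with d = log2((mutant mean + 1)/(wild type mean + 1)). The rule asked for a 12-library mean of at least 50, a d of the same sign and of at least 0.7 in size in both genotypes that carry eml1 eml2, and a d between -0.2 and 0.2 in gte4. EML2 (AT5G06780) was left out because it is itself mutated. Of 32548 genes in the table, 16738 had a mean of at least 50 and 18 met the rule, 13 of them higher and 5 lower. The values that chose the genes are given as description, without a test.

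RNA of seedlings of 20 days was sequenced in 3 libraries for each of 4 genotypes, labelled wild type, gte4-/-, eml1-/-eml2-/- and gte4-/-eml1-/-eml2-/-. The last is called the triple mutant. Seedlings had 12 days on Murashige and Skoog plates and then grew in soil, at 22 °C with 16 h of light and 8 h of darkness. No genotype had a treatment. The labels name no alleles and do not say whether a library is 1 plant or a pool, or whether replicates are separate cultures, so the p-values below measure only the spread between these libraries. EML2 stood at 569 in wild type, 30.7 in the triple mutant and 108 in eml1 eml2, and GTE4 (AT1G06230) at 1703 in wild type and 74.96 in gte4 (means of normalized values, n = 3). EML1 (AT3G12140) stood at 928 in wild type and 942 in eml1 eml2, so its transcript level does not check that mutation.

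GTE4 is a bromodomain protein, of a class that binds acetylated lysines on histone tails, and the EMSY-like proteins EML1 and EML2 carry a domain of the Royal family that binds methylated histone tails. The series title joins them in 1 complex that reads both marks. Partners in such a complex are commonly studied by asking which genes change in each mutant alone and in the combination. A gene that moves with 1 partner and not with the other is the case taken up here.

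Such genes were the exception in these libraries. Among the 16738 genes, 471 passed 0.7 in the same direction in both eml1 eml2 and the triple mutant, 255 of them higher and 216 lower. In gte4, 452 of these 471 also lay more than 0.2 from wild type in that direction, and 1 lay more than 0.2 in the other. The 18 that remained were 3.82% of the 471, although 57.3% of all 16738 genes had a gte4 difference within 0.2. These shares are a description. The differences of all mutants are taken from the same wild type libraries, so deviations of wild type move them together. All 13 higher genes had a gte4 difference above 0, from 0.01 to 0.19, with a median of 0.16. The nearest genes inside the gte4 limit were GSL4 at 0.19, ERF2 at 0.19 and AT4G16857 at 0.18, and the nearest outside were AT4G38062 at 0.21, AT5G23910 at 0.21 and TRFL8 at 0.22. At the limit of 0.7 in eml1 eml2, AT5G52280 (0.71), XIF (0.71) and MKK9 (-0.71) lay just inside, and CYCD4;2 (-0.69), SAMBA (-0.69) and AT1G63300 (0.68) just outside. At that limit in the triple mutant XIF (0.70), AT1G56710 (0.73) and AT5G52280 (0.74) lay inside, and SUS6, AT2G37420 and AT5G40340 (0.70, 0.69 and 0.69) outside. At the minimum mean AT3G59510 (60.6), AT1G56710 (60.9) and AT4G16857 (73.3) lay inside, and PBP1 (41.3), AT2G18180 (37.9) and AT5G03285 (36.9) outside.

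**Figure D1:**
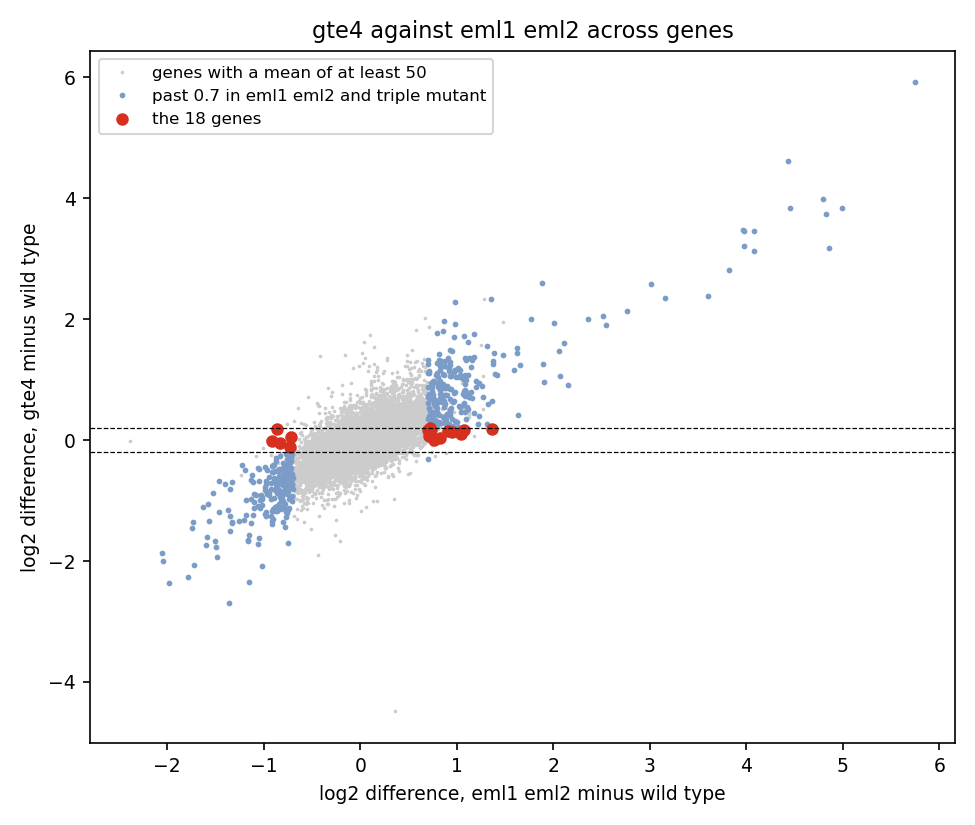
Each point is a gene with a mean of at least 50; the axes are log2 differences from wild type in eml1 eml2 (horizontal) and gte4 (vertical), and dashed lines mark 0.2 and -0.2. Most of the 471 genes past 0.7 in eml1 eml2 and the triple mutant (blue) lie beyond the lines on the same side, and the 18 genes (red) lie between them.

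The higher genes with chromatin and nuclear roles were CRWN1, DML3 and MED8. CRWN1 (AT1G67230, LINC1 in the annotation) is a coiled-coil protein of the nuclear periphery that shapes the nucleus. Its normalized values were 2687, 1778 and 2107 in the wild type libraries, 2251, 2380.4 and 2767 with gte4 alone, 3644, 3271 and 3916 with eml1 eml2, and 3299, 4095 and 3763 with all mutations. All 6 libraries with eml1 eml2 lay above all 6 without it, and the mean was 1.65 times wild type in eml1 eml2 and 1.70 times in the triple mutant. DML3 (AT4G34060) is a DNA glycosylase of the DEMETER family, which removes methylated cytosine from DNA. DML3 stood at 106, 99.5 and 87.2 in the wild type libraries, 118, 94.9 and 112 with gte4 alone, 201, 189 and 164 with eml1 eml2, and 214, 203 and 149.9 with all mutations. Its 2 groups of 6 did not overlap either, with means of 97.4 ± 9.34 in wild type and 184 ± 18.7 in eml1 eml2 (SD, n = 3).

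MED8 (AT2G03070) is a subunit of Mediator, the complex that links transcription factors to RNA polymerase II. It was the steadiest of the 18 genes between libraries of 1 genotype. MED8 stood at 502, 459 and 464 in the wild type libraries, 558, 517 and 528 with gte4 alone, 771, 778 and 793 with eml1 eml2, and 816, 792 and 787 with all mutations. The 3 gte4 libraries lay above the 3 wild type libraries, and the 6 libraries with eml1 eml2 lay above both. From wild type, d was 0.72 with eml1 eml2, 0.75 with all mutations and 0.17 with gte4 alone.

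Genes of cell division, the cell wall and the cytoskeleton formed the next group. POK1 (AT3G17360) is a kinesin that guides the cytokinetic phragmoplast to the division site. POK1 stood at 444, 261 and 267 in the wild type libraries, 375, 329 and 359.8 with gte4 alone, 691, 534 and 653 with eml1 eml2, and 537, 686 and 559.9 with all mutations. The highest library without eml1 eml2 was wild type replicate 1, and it remained below the lowest with it. GSL4 (AT3G14570) is a callose synthase, an enzyme that makes the beta-glucan of cell plates and wound plugs. GSL4 stood at 222, 229 and 221 in the wild type libraries, 260.1, 241 and 268 with gte4 alone, 364, 394 and 352 with eml1 eml2, and 354, 412 and 375 with all mutations. As for MED8, gte4 lay slightly above wild type in all 3 libraries, and the eml1 eml2 libraries stood well apart.

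XIF (AT2G31900) is a class XI myosin, a motor that moves along actin. XIF stood at 87.7, 62.8 and 44.9 in the wild type libraries, 62.5, 63.9 and 78.1 with gte4 alone, 115, 87.1 and 119 with eml1 eml2, and 93.5, 117 and 109.8 with all mutations. One eml1 eml2 library lay just under the highest wild type library. The strand of the reads is unknown and 44.4% of the exon bases of XIF overlap other annotated genes, among them an antisense RNA, so the reads of XIF and its partners cannot be told apart. IQD33 (AT5G35670), a protein with a calmodulin-binding domain, ran from 94.2 to 146 in wild type and gte4 and from 169 to 224 in both genotypes with eml1 eml2. AT5G52280, annotated as myosin heavy chain-related, ran from 566 to 848 without eml1 eml2 and from 945 to 1260.3 with it. AT1G56710, annotated as pectin lyase-like, overlapped: its eml1 eml2 libraries stood at 94.1, 77.9 and 52.2 and its gte4 libraries at 63.1, 46.8 and 40.0.

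ACOS5 (AT1G62940) is an acyl-CoA synthetase that makes precursors of sporopollenin, the polymer of the pollen wall, in the tapetum of anthers. ACOS5 stood at 53.5, 102 and 86.8 in the wild type libraries, 111, 62.3 and 86.0 with gte4 alone, 148, 215 and 139 with eml1 eml2, and 159, 245 and 184 with all mutations. Its mean was 2.08 times wild type in eml1 eml2 and 2.43 times in the triple mutant, with no overlap. ACOS5 belongs to a list of 16 tapetum and pollen genes, of which the other 15 were tested: 11 were called higher and 0 lower in eml1 eml2, against 13 and 0 in the triple mutant, and 7 and 0 in gte4. Over all 22315 tested genes limma called 12.1% higher and 13.8% lower in gte4, 11.6% and 12% with eml1 eml2, and 15.4% and 18.2% with all mutations. The median log2 difference of those 15 genes was 1.42 in eml1 eml2, 1.69 in the triple mutant and 1.10 in gte4, against 0.01, 0.00 and 0.00 over all tested genes.

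Sporopollenin enzymes and a pollen coat gene of that list are given for their gte4 values, whose difference was not tested. LAP5, a polyketide synthase of the sporopollenin pathway, had means of 40.8 in wild type, 49.2 with gte4 alone, 103 with eml1 eml2 and 132 with all mutations. CYP704B1, a fatty acid hydroxylase of the same pathway, lay at log2 differences from wild type of 1.73 in the triple mutant, 1.21 in eml1 eml2 and 0.26 in gte4. LAP6, also on the list and with a wild type mean of 195, departed from these. It lay at 0.62 in the triple mutant, 0.35 in eml1 eml2 and -0.15 in gte4. The pollen coat gene GRP17 had means of 15.6 in wild type, 149.5 with gte4 alone, 481 with eml1 eml2 and 77.9 with all mutations, so it also stood above wild type in gte4. The summed level of all 16 genes ran from 367 to 653 in wild type, 977 to 1411 with gte4 alone, 1774 to 2614 with eml1 eml2 and 1064 to 1536 with all mutations, and none was listed at 0 in every library. Of 11 floral organ identity genes 8 were called higher in eml1 eml2, 5 in the triple mutant and 5 in gte4, with 0 lower in each, and their summed level ran from 581 to 742, 1124 to 1502, 984 to 1263 and 988 to 1115 in wild type, eml1 eml2, the triple mutant and gte4. In whole seedlings more floral tissue and more RNA per cell cannot be told apart, and the part of floral tissue in the level of ACOS5 was not tested.

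Markers of other tissues were measured in the same libraries. Leaf photosynthesis genes were abundant in all libraries, with summed levels from 2654714 to 3242020, and of 15 members 3 were called higher and 4 lower in eml1 eml2, against 5 and 5 in the triple mutant, and 5 and 3 in gte4. Root genes gave 1 higher and 1 lower of 14 in eml1 eml2, against 2 and 0 in the triple mutant, and 2 and 1 in gte4, and RSL4 was listed at 0 throughout. Their summed level was 3377 to 3847 in wild type, 4811 to 5270 with gte4 alone, 3970.0 to 4039.7 with eml1 eml2 and 4942 to 5163 with all mutations. The sum follows PYK10, with means of 1742, 2965, 1900 and 2993 in the same order, whereas SCR had 919, 968, 959 and 881. Trichome genes gave 4 higher and 1 lower of 14 in each of the 3 mutants. Of 11 seed storage genes 5 were listed at 0 in every library and 1 was tested, with no call in any mutant. A listed 0 need not mean no expression in this table, since MYC2, F3H and RPL27AB, a jasmonate regulator, a flavonoid enzyme and a ribosomal protein gene, are also listed at 0 in every library.

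The remaining higher genes are known only from their annotation. AT4G16857 belongs to the TIR-NBS-LRR class of disease resistance proteins, whose members have close copies in the genome that can share reads, so its level is uncertain. AT4G16857 stood at 41.5, 39.6 and 48.4 in the wild type libraries, 36.8, 38.0 and 72.1 with gte4 alone, 126, 113 and 98.0 with eml1 eml2, and 88.4, 91.6 and 85.8 with all mutations. Its difference of 1.36 in eml1 eml2 was the widest of the 18, and gte4 replicate 3 alone approached that level. AT3G59510, a leucine-rich repeat protein, ran from 27.1 to 51.8 without eml1 eml2 and from 68.4 to 102 with it. AT2G31150, annotated as an ATPase, ran from 322 to 476 without and from 605 to 774 with it.

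**Figure D2:**
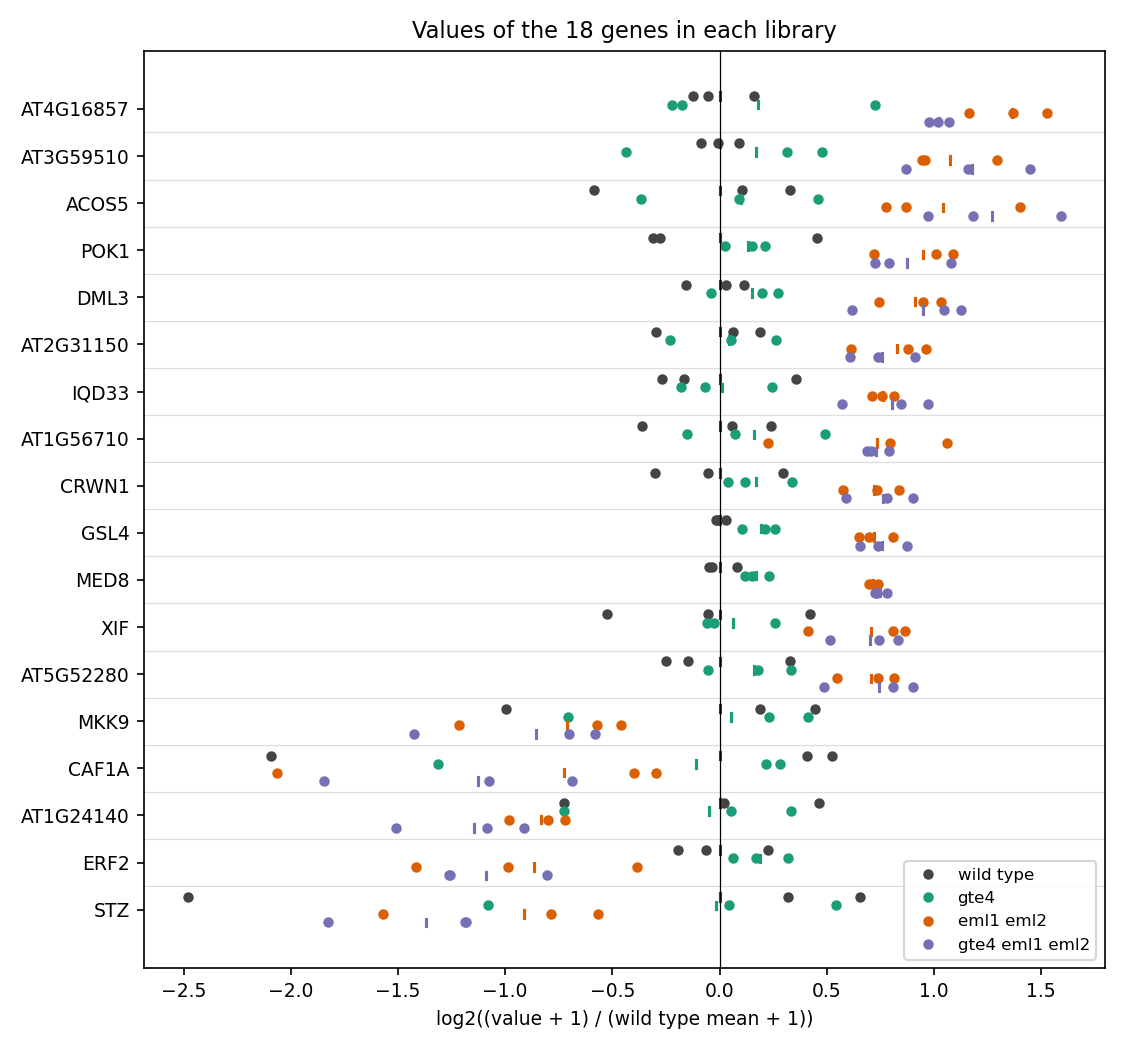
Each row is 1 of the 18 genes and each point 1 library, placed by its log2 level relative to the wild type mean; short bars mark genotype means, 3 libraries each. For 11 of the 13 higher genes the orange and purple points lie right of all black and green points, while among the 5 lower genes the points are separated for ERF2 and mixed for the other 4.

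The counts of separated genes are a description, since the rule used these means. Of the 13 higher genes, 11 had all eml1 eml2 libraries above all wild type libraries, where 19.7% of the 16738 genes do so in that direction, and all 13 did so in the triple mutant, against 22.2%. In 11 all 6 libraries with eml1 eml2 lay above the 6 without, against 4.78% of all genes. Of the 5 lower genes, 1 was separated from wild type in eml1 eml2 (24.4% of all genes are, in that direction), 2 in the triple mutant (29.3%), and 1, ERF2, with 6 libraries against 6 (4.15%).

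The 5 lower genes are stress and defence regulators or enzymes. STZ (AT1G27730, also called ZAT10) is a zinc finger repressor induced by salt, cold and wounding. STZ stood at 38.1, 271 and 342 in the wild type libraries, 102, 224 and 317 with gte4 alone, 72.6, 125 and 146 with eml1 eml2, and 60.6, 94.7 and 95.1 with all mutations. Replicate 1 was the lowest in each genotype, and wild type replicate 1 was the lowest of all 12 libraries. CAF1A (AT3G44260) is a deadenylase of the CCR4-NOT complex, which shortens the poly(A) tails of mRNAs. CAF1A stood at 118, 730.1 and 674 in the wild type libraries, 204, 589 and 618 with gte4 alone, 121, 385 and 414 with eml1 eml2, and 141, 241 and 314 with all mutations. It had the same shape: replicate 1 was similar in wild type, eml1 eml2 and the triple mutant, and the genotypes parted in replicates 2 and 3.

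MKK9 (AT1G73500) is a MAP kinase kinase of stress and ethylene responses. MKK9 stood at 276, 751 and 628 in the wild type libraries, 338, 735 and 647 with gte4 alone, 237, 371 and 401 with eml1 eml2, and 205, 339 and 369 with all mutations, again lowest in replicate 1 of each genotype. AT1G24140, annotated as a matrixin, a metalloprotease, stood at 72.7, 123 and 167 in the wild type libraries, 72.7, 152 and 126 with gte4 alone, 72.9, 60.6 and 69.1 with eml1 eml2, and 63.8, 41.8 and 56.5 with all mutations. Replicate 1 of wild type and of gte4 lay at the level of eml1 eml2. ERF2 (AT5G47220), an ethylene response factor that activates defence genes, was the exception. ERF2 stood at 102, 137 and 112 in the wild type libraries, 123, 132 and 147 with gte4 alone, 89.6, 58.8 and 43.4 with eml1 eml2, and 48.5, 48.4 and 66.8 with all mutations, with all 6 libraries with eml1 eml2 below the 6 without.

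**Figure D3:**
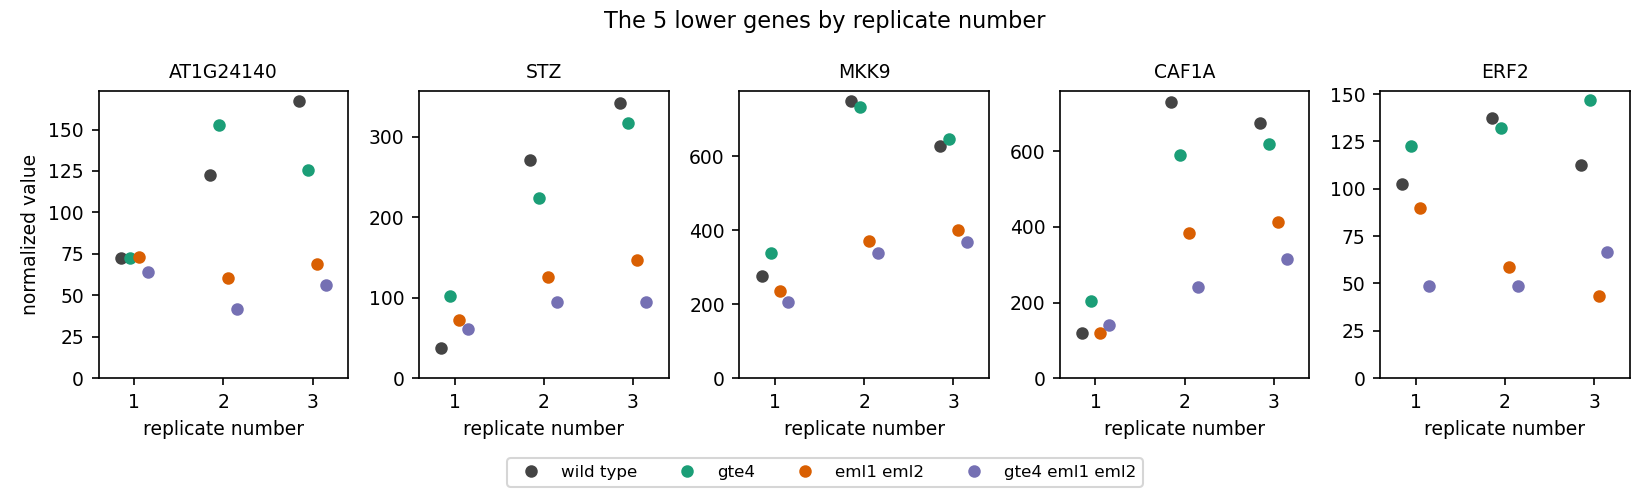
Normalized values of the 5 lower genes (vertical axis, from 0) by replicate number (horizontal axis; points of the 4 genotypes are set side by side), 1 point per library. In replicate 1 of STZ, CAF1A, MKK9 and AT1G24140 the values span less than in replicates 2 and 3, though STZ still ran from 38.1 to 102. MKK9 and ERF2 keep wild type and gte4 on top in each replicate.

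Promoters of 3 of the 5 lower genes hold a G-box, CACGTG, a palindrome bound by bZIP and bHLH factors, within the 250 bases before and 50 after the annotated start. These are STZ, MKK9 and ERF2. Of 16737 such windows of genes with a mean of at least 50, 8.99% hold it, and of the 13 higher genes 1 does, AT1G56710. The 3 windows are shown because the genes share this match; they are from RefSeq's TAIR10.1 genome, 5′ to 3′ on the minus strand of chr1:9649274-9649573, chr1:27640594-27640893 and chr5:19172907-19173206, with every match to a searched motif in capitals.
STZ: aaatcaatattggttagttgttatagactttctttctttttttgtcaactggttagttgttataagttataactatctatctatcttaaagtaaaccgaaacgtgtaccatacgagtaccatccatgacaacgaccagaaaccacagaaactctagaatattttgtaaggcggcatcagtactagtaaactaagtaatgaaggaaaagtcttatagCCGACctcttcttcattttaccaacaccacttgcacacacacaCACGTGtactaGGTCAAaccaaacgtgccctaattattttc
MKK9: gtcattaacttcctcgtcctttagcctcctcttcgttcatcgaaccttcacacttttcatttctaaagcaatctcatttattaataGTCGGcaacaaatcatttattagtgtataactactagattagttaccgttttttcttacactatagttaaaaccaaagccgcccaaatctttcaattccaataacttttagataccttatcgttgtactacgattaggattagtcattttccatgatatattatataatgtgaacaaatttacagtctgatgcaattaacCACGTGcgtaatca
ERF2: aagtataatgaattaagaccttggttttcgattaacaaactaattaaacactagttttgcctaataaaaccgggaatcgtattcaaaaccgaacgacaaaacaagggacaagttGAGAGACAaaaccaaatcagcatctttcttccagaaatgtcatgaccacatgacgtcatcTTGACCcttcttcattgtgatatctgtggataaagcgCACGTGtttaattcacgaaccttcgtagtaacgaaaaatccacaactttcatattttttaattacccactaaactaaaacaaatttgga
The other motifs, searched on both strands, were CCGAC, the core of the cold response element; the W-box forms TTGACC and TTGACT; the element GGCCCA of promoters bound by TCP factors; the telobox AACCCTA; the evening element core AATATCT; the TATA box TATAAA; the repeat GAGAGA; and the auxin response element TGTCTC. The cold element core CCGAC was in STZ and MKK9, against 16.6% of all windows, and TTGACC in STZ and ERF2, against 14.2%. The capitals of ERF2 include a GAGAGA that overlaps a match to TGTCTC on the other strand. The window of CAF1A held none of these motifs, and that of AT1G24140 held GGCCCA and the TATA box. Among the higher genes TTGACT was in 4 of 13 (21.4% of all windows), TATAAA in 6 (50.4%), and AATATCT in 2 (12.0%). The repeat GAGAGA was in 2 (28.6%) and the auxin element TGTCTC in 2 (13.4%), while GGCCCA was in 1 (20.4%) and the telobox AACCCTA in 1 (7.92%). A match is a run of letters and not a shown binding site.

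Most of the 18 genes varied more between libraries of 1 genotype than the median gene. The rule did not use this spread itself. Means of 3 libraries differ more by chance where libraries vary, so its size thresholds favour such genes. The spread is therefore given as description. The SD of log2(value + 1) within genotypes was 0.11 for the median of the 16738 genes. It was 1.04 for CAF1A, 1.01 for STZ, 0.58 for MKK9, 0.44 for AT1G24140 and 0.32 for ERF2, at or above the 95.2nd percentile of all genes in each case. Among the higher genes its median was 0.23, with a median percentile of 87.6, and it ran from 0.05 for MED8, at the 6.53rd percentile, and 0.08 for GSL4, at the 29.1st, to 0.39 for ACOS5, at the 97.3rd. Ratios within a replicate number show the same for STZ: eml1 eml2 over wild type was 1.90 in replicate 1, 0.46 in replicate 2 and 0.43 in replicate 3. For ERF2 these ratios were 0.87, 0.43 and 0.39, for CAF1A 1.02, 0.53 and 0.61, and for DML3 they were 1.90, 1.90 and 1.88.

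The deviations of libraries from their genotype means moved together for several genes. Across the 12 libraries, whose deviations sum to 0 in each genotype, Pearson's r was 0.97 between MKK9 and CAF1A, 0.94 between STZ and CAF1A and 0.91 between STZ and MKK9. ERF2 did not follow them, with r from -0.02 to 0.26 with the other 4. Among the higher genes CRWN1 and AT5G52280 had r = 0.96, IQD33 and AT5G52280 0.93, and XIF and IQD33 0.87, whereas the median of the 78 pairs was 0.20. These values are a description: the points share libraries and, by replicate number, part of their variation, and what they stem from was not tested.

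Touch and rapid stress genes also had their lowest deviations in replicate 1. A list of such genes has 14 members outside the 18 with a mean of at least 50, among them the calmodulin-related TCH2 and the zinc finger gene SZF1. Their mean deviation from the genotype mean was -0.91, 0.11 and 0.80 in wild type replicates 1, 2 and 3, and -0.51, -0.11 and 0.61 in eml1 eml2. For the 5 lower genes it was -1.08, 0.53 and 0.55 in wild type, and -0.31, 0.14 and 0.17 in eml1 eml2. By genotype means, 11 of the 14 lay below wild type in eml1 eml2, 13 in the triple mutant and 9 in gte4, with medians of -0.47, -0.62 and -0.10. Of 18 tested list members outside the 18 genes, limma called 1 lower and 0 higher in eml1 eml2, against 3 and 0 in the triple mutant, and 0 lower and 2 higher in gte4. The shares of all tested genes are 12% lower, 18.2% lower and 12.1% higher in these comparisons, so the counts are at or below them. With a replicate block limma called 4 of the list (22.2%) lower in eml1 eml2, against 14.8% of all tested genes. In the triple mutant 8 (44.4%) were then called lower, against 20.8%, and in gte4 3 (16.7%) higher, against 14.9%. With the block these shares of the list thus lay above those of all tested genes. The part of this variation between samples in the differences of the 5 lower genes was not tested.

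The rule held both the triple mutant and eml1 eml2 past 0.7 on the same side of wild type, which favours a small difference between them, so this comparison is given mainly for its intervals. limma called 0 of the 18 between these genotypes and 370 of 22315 genes, or 1.66%, and a count of 0 among 18 is near that share. At an unadjusted p under 0.05 it was also 0 of the 18, against 2925 of the 22315 genes. There 0 lies below the share of all genes, a low count that the rule favours, and it is not read further. With a replicate block the 370 became 682 of the 22315 genes, and still 0 of the 18. Among the higher genes the fitted difference ran from -0.33 for AT4G16857 to 0.23 for ACOS5, with a median of 0.03, and among the lower genes from -0.43 for STZ to -0.15 for MKK9.

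How much the comparison could have shown differs by gene. The intervals below are from the fit without a replicate block, so variation shared by replicate number remains in them. Intervals with the block are not given here. For MED8 the difference was 0.03 (SE 0.06, 95% interval -0.10 to 0.17, limma adjusted p = 0.91), and for GSL4 0.04 (-0.15 to 0.23, adjusted p = 0.926). For ACOS5 it was 0.23 (-0.37 to 0.83, adjusted p = 0.819) and for AT4G16857 -0.33 (-0.80 to 0.13, adjusted p = 0.598). For STZ the interval ran from -2.29 to 1.44 (difference -0.43, adjusted p = 0.905) and for CAF1A from -2.21 to 1.65 (difference -0.28, adjusted p = 0.945), so that for both a difference of the size that chose them lay inside. All 5 lower genes had a lower mean in the triple mutant than in eml1 eml2, as had 5 of the 13 higher genes. A p that misses the threshold does not show that the genotypes were alike.

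Exon length, which the rule did not use, was greater by median in the higher than in the lower genes, as a description with no test. The 13 higher genes had a median exon length of 2394 bases and a median of 7 exons, the 5 lower genes 1339 bases and 1 exon each, and all 16738 genes 1849 bases and 5 exons. Single-exon genes were 5 of 5 among the lower and 1 of 13 among the higher genes, against 13.3% of all. XIF, GSL4 and POK1 each have over 5000 exon bases, as do 1.80% of all genes. With CRWN1, DML3 and AT5G52280, these make 6 of the 13 higher genes in the longest of 5 length classes, while 4 of the 5 lower genes lay in the second shortest.

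The libraries themselves had a trend with exon length. From the shortest to the longest class the median log2 difference of eml1 eml2 from wild type rose from -0.11 to 0.10, that of the triple mutant from -0.12 to 0.09, and that of gte4 fell from 0.03 to -0.06. The 301 genes over 5000 bases had medians of 0.19, 0.18 and -0.08. With the trend removed the eml1 eml2 difference was 0.74 in place of 0.95 for POK1, 0.50 in place of 0.72 for GSL4, 0.52 in place of 0.71 for XIF and 0.59 in place of 0.72 for CRWN1, while for ACOS5 it was 1.08 in place of 1.04. The gte4 differences of the higher genes then had a median of 0.20 in place of 0.16. Past the limit of 0.2 lay GSL4 (0.30), POK1 and CRWN1 (0.26), DML3 and AT5G52280 (0.23), MED8 (0.21), ERF2 (0.203) and AT4G16857 (0.202). The same rule then chose 11 genes, of which 7 were among the 18: ACOS5, AT1G56710, AT2G31150, AT3G59510, IQD33, STZ and AT1G24140. DML3, AT4G16857 and ERF2 were lost by the gte4 limit alone, and XIF, MKK9 and CAF1A by the size limit alone. The other genes lost, POK1 among them, missed both limits. Whether the trend arose in the plants or in the making of the libraries was not tested.

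**Figure D4:**
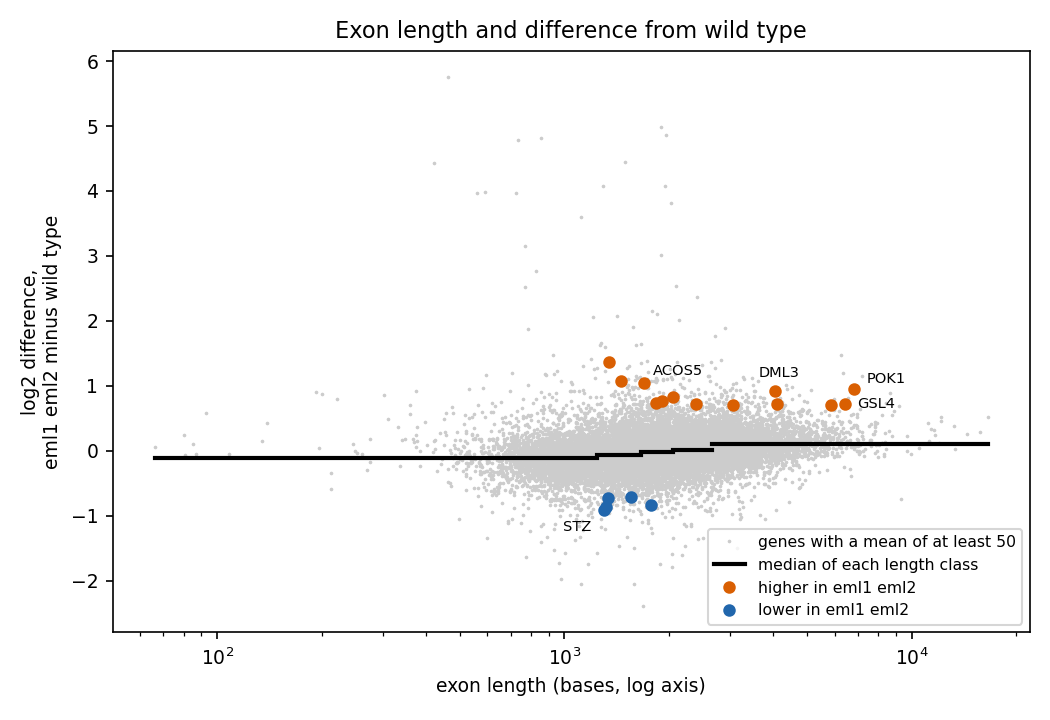
Exon length in bases (log axis) against the log2 difference of eml1 eml2 from wild type, 1 point per gene with a mean of at least 50; black lines are the medians of 5 length classes. The class medians rise from -0.11 to 0.10, higher genes (orange) reach 6815 bases, and the lower genes (blue) lie between 1303 and 1782.

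Relatives of the 18 genes, listed after the members were known, showed whether a difference was shared in a family. The other CRWN genes with a mean of at least 50, LINC2 and CRWN3, lay at 0.60 and 0.57 in eml1 eml2 and at 0.60 and 0.57 in the triple mutant, and LINC4 was listed at 0 in every library, which need not mean no expression. POK2, the partner kinesin of POK1, lay at 0.89 and 0.92, and at 0.27 in gte4, beyond the limit of 0.2. The 8 other callose synthases found, each with a mean of at least 50, lay above wild type in both genotypes. In eml1 eml2 they ran from 0.03 for GSL5 to 0.81 for GSL7, with GSL6 and GSL10 also near 0, at 0.07 each. GSL2, GSL3 and GSL9 were not matched by name to a gene of the data. The other DNA demethylases did not share the pattern of DML3, with 0.22 for DME, 0.30 for DML2 and -0.50 for ROS1, which lay at -0.84 in gte4. Of 7 other class XI myosins with a mean of at least 50, 5 lay above wild type in both genotypes. Their values ran from -0.05 to 0.55 in eml1 eml2, and from -0.87 for XIJ to 0.43 in the triple mutant. All of these families have long transcripts, and the trend with exon length given above includes them.

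Relatives of the lower genes were mixed. Of the C1-2i zinc finger genes with a mean of at least 50, ZAT6, AZF2 and ZAT12 lay at -1.20, -0.33 and -0.61 in eml1 eml2. In gte4 they lay at -0.50, -0.06 and 0.28. Below that mean AZF1, AZF3, ZAT7 and ZAT11 lay above wild type in eml1 eml2, at 0.07, 0.17, 0.45 and 0.60. The group IX ethylene response factors ERF1A, ERF5 and ERF6 lay at -0.27, -0.53 and -0.62 in eml1 eml2. Below a mean of 50, ORA59 lay at 0.43 and ERF1 at -0.35. CAF1B, the closest relative of CAF1A, lay at -0.07 in eml1 eml2, at 0.28 in gte4 and at -0.12 in the triple mutant. Among 6 other MAP kinase kinases the eml1 eml2 values ran from -0.58 for MKK1 to 0.60 for MKK6.

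**Figure D5:**
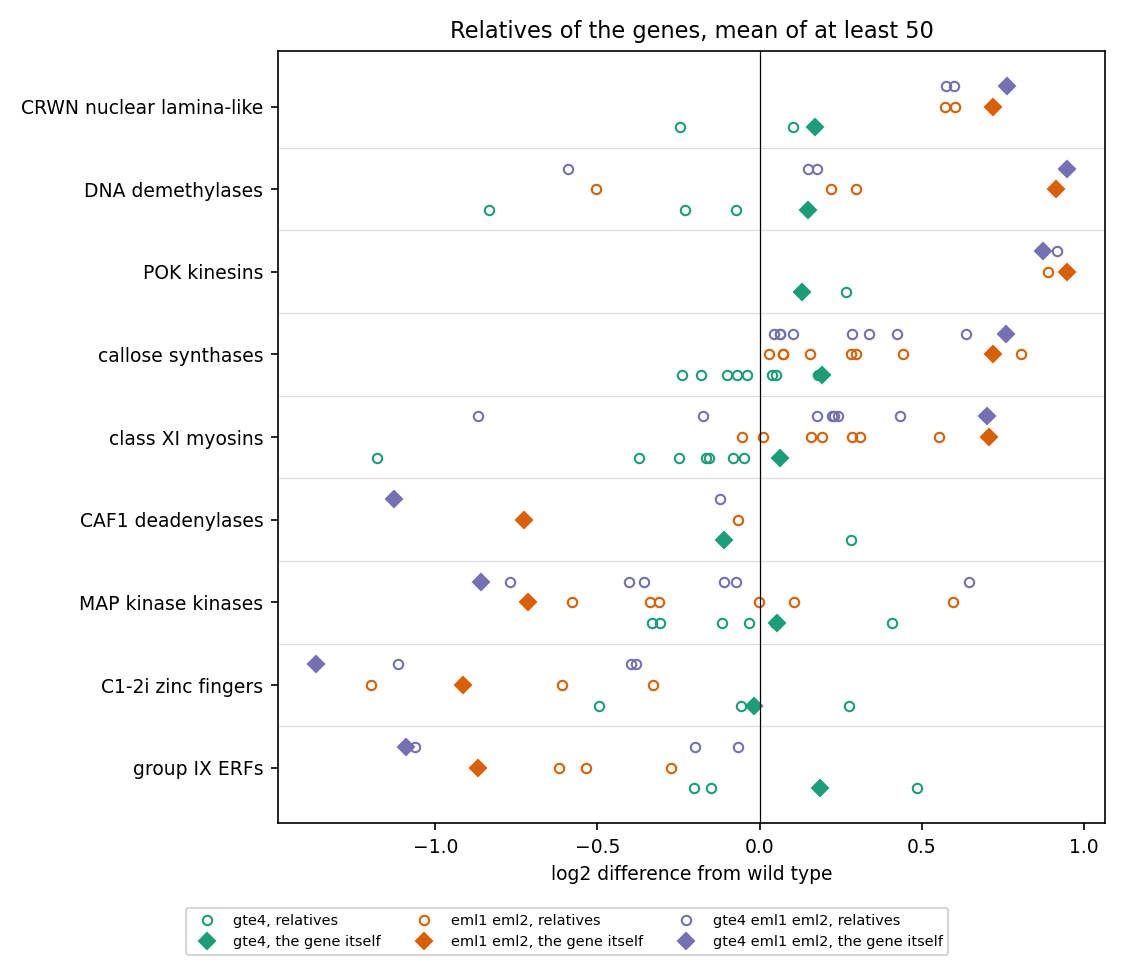
Log2 differences from wild type (horizontal axis) of each gene (diamonds) and its relatives (open circles) with a mean of at least 50, by family and mutant. The eml1 eml2 and triple mutant values of the CRWN, POK and callose synthase relatives lie above 0, and those of the MAP kinase kinases lie on both sides.

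Cell-cycle genes give the setting of POK1. In a list of 25, limma called 21 higher and 0 lower in eml1 eml2, against 20 and 0 in the triple mutant, and 14 and 0 in gte4, with medians of 0.50, 0.50 and 0.28. The shares of all tested genes called higher are 11.6%, 15.4% and 12.1%. HIK, another cytokinesis kinesin, lay at 1.12 in eml1 eml2 and at 0.52 in gte4, and KNOLLE, the syntaxin of the cell plate, at 0.55 and 0.14. POK1 itself lay at 0.95 and 0.13. Summed over the list the level ran from 13017 to 13977 in wild type, 15730 to 16939 with gte4 alone, 19423 to 19637 with eml1 eml2 and 18371 to 20199 with all mutations.

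The 18 genes did not lie together on the chromosomes. They fell on all 5, with 6, 3, 4, 2 and 3 genes in order, where 26.2%, 15.1%, 20.1%, 15.2% and 23.3% of the 16738 genes lie. The closest 2 were 96 genes apart. The nearest to EML1 was GSL4, 365 genes away, and the nearest to EML2 was IQD33, 3416 genes away. Of 36 direct neighbours 12 had a mean of at least 50, with eml1 eml2 differences from -0.75 to 0.21 and a median of 0.00. One of these, AT3G17365 beside POK1, passed 0.7 in both genotypes, in the direction opposite to POK1 and with -0.86 in gte4.

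Membership varied with the libraries used. Leaving out each library in turn, the rule chose 13 to 33 genes, of which 6 to 17 were among the 18, and none of the 18 was chosen all 12 times. POK1 was chosen in 11 of the 12 runs, ACOS5, AT2G31150, AT3G59510 and DML3 in 10, MED8, IQD33, ERF2 and AT4G16857 in 9, and XIF, CAF1A and AT5G52280 in 5. The gte4 difference changed sign with some library left out for 12 of the 18 genes, and kept it for CRWN1, MED8, GSL4, DML3, AT5G52280 and ERF2. For STZ it ran from -0.51 to 0.47 over these runs, and for MED8 from 0.14 to 0.21. Without gte4 replicate 1, none of the 5 lower genes was chosen, and without wild type replicate 1 only ERF2 of them was. With replicate 1 of every genotype left out, 9 of the 18 were chosen, among them MED8, GSL4, DML3, AT2G31150 and AT3G59510 of the higher and STZ, MKK9, ERF2 and AT1G24140 of the lower genes.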

How the data were processed

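Gene-level values of 12 libraries of Arabidopsis thaliana were analysed. Per the submitters' processing notes, reads were handled with bcl2fastq, HISAT2, TAIR10 and edgeR. Versions, the counting program and strandedness are not given in the sources used here. The deposited signal is 1 value per gene and library that the authors had normalized; how they did so is not given in the sources used here. Its totals ran from 31990484 to 34322625 per library, the values are not whole numbers, and the number of reads behind each value is unknown, so no counting interval is given. The deposited values of 32548 genes were used unchanged.

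The genes were chosen from genotype means, with log2 differences after 1 was added. The members, gene lists and tests were chosen with earlier results of these data known. limma 3.58.1 in R 4.3.3 was fitted to log2(value + 1) of 22315 genes with a mean of at least 1, with 1 coefficient per genotype, a mean-variance trend and robust moderation. Benjamini-Hochberg adjustment was taken over all of them, and a gene was called at an adjusted p under 0.05. The fitting step was tested on simulated data. With 3 libraries against 3 the smallest exact permutation p is 0.1, so only the fit across all genes was used. The analysis had been planned for either counts or normalized values, and the test for normalized values applied.

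The rule for naming genes took the 15 largest differences each way, members of the gene lists, called members, neighbouring members and genes next to each threshold; it covers all 18 genes. Lists of relatives were added after the members were known. Gene names, exon lengths, gene order and promoters come from RefSeq's annotation of TAIR10.1, in which all 32548 gene IDs were found. Symbols that matched an unrelated gene of the same name were removed from the lists. Alternatives were other pseudocounts, scalings, minimum means and rule thresholds, each library left out in turn, a replicate block and removal of the trend with exon length. Removal of the length trend from the choice of genes, leaving out replicate 1 of every genotype, gte4 differences with single libraries left out and the replicate block for list members against wild type were added after the data were seen.

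Whether replicate numbers pair the libraries was checked from the deviations of each library from its genotype mean, over 16738 genes with a mean of at least 50. For eml1 eml2 and the triple mutant the correlation of same-number libraries was 0.515, 0.131 and 0.595, all above 0.1, and so it was for wild type with eml1 eml2 (0.516, 0.121 and 0.576), wild type with gte4 (0.465, 0.262 and 0.506) and gte4 with eml1 eml2 (0.533, 0.177 and 0.624). For wild type with the triple mutant it was 0.376, -0.12 and 0.534, and for gte4 with the triple mutant 0.499, -0.07 and 0.462. Replicate 2 thus lay below 0.1 for those, and by this check the numbers do not pair them throughout. Correlations between libraries of different numbers are not given. The labels do not say what the numbers share.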

Additional observations from a re-analysis of the deposited data

How the results depend on the processing

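The number of genes chosen, 18, followed the thresholds: 55 genes at a size of at least 0.6 and 8 at 0.8, 6 with gte4 within 0.1 and 43 within 0.3, and 29 at a minimum mean of 20 and 216 with none. With the length trend removed it was 11, and with replicate 1 of every genotype left out 30. It ran from 13 to 33 with single libraries left out, reaching 33 without gte4 replicate 3 and 28 without eml1 eml2 replicate 3. The cause was not tested; other pseudocounts and scalings gave 13 to 21. Genes called between the triple mutant and eml1 eml2 numbered 370, and 682 with the replicate block, 831 with the block and the length trend removed, and 132 (without eml1 eml2 replicate 2) to 449 with single libraries left out; 0 of the 18 were called under each of these and the other alternatives run. Taken from genotype means as in the rule, no difference of the 18 genes changed sign in eml1 eml2 or the triple mutant under the alternatives run. That of gte4 did for 12 of the 18 with single libraries left out. The fitted differences average log2 values instead. For STZ and CAF1A the sign of that average difference in eml1 eml2 was not kept with every library left out. With the replicate block, touch genes called lower went from 1 to 4 in eml1 eml2 and from 3 to 8 in the triple mutant. These are 22.2% and 44.4% of the touch genes, against 14.8% and 20.8% of all tested genes with the block. Trichome genes called lower went from 1 to 2 in both genotypes, and root genes called lower from 1 to 2 in gte4. The number of reads behind each value is unknown, and 3 libraries per genotype limit what can be separated, most of all for STZ, CAF1A and MKK9.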
